A study of Mus musculus with 20 samples.

Results

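The 10 genes described here encode the fast and developmental part of the skeletal muscle contractile apparatus: the adult fast myosin heavy chains Myh1, Myh2 and Myh4, the developmental heavy chains Myh3 and Myh8, and the fast fibre genes Actn3, Pvalb, Mybpc2, Tnni2 and Tnnt3. They were taken by name from the 53465 genes of each deposited table, and all 10 were found and passed the low-count filter that left 15709 genes. Their levels were followed in muscle RNA of wild type mice in 4 groups of 5 libraries: female non-trained, female trained, male non-trained and male trained. The labels name no strain, allele, muscle, age or training protocol, and any further samples were not analysed here. The labels do not say that the libraries came from separate animals, so each p-value below reflects only how these libraries spread, which may be technical.

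A myosin heavy chain is the motor of the thick filament, and each adult fibre type is classified by the heavy chain it carries. Myh7 marks slow type I fibres, Myh2 fast oxidative type IIA fibres, Myh1 type IIX fibres and Myh4 the fastest, most glycolytic type IIB fibres, which are abundant in many mouse limb muscles. Myh3 and Myh8 are the embryonic and neonatal heavy chains, which dominate before and around birth and come back transiently in regenerating adult fibres. In bulk RNA, fewer fibres of a type and less RNA per fibre cannot be told apart.

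The library totals ran from 22043145 to 38483572 counts, and the 10 genes together held 8.82% to 12.7% of them. Skeletal muscle fibre genes were abundant in every library, with Ckm, the muscle creatine kinase, between 11414 and 21362 CPM (counts per library brought to one size by TMM normalisation). Of the cardiac genes looked at, Myl7, the atrial light chain, was at 0 in all 20 libraries and Nppa reached at most 7 counts, while Myh6, the alpha cardiac heavy chain, was at 0.53 to 8.98 CPM. Several libraries stood apart. Female non-trained library 1 had the highest total and the fewest detected genes (18727), male non-trained library 4 had 3754 CPM of summed erythroid markers against 194 to 1180 in the other 19 libraries, and male trained library 3 had 697 CPM of summed macrophage markers against 45.2 to 362 elsewhere.

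The 5 heavy chain genes of the set lie side by side on chromosome 11, all on the plus strand, in the order Myh3 (chr11:67078300-67102291), Myh2 (chr11:67171027-67197517), Myh1 (chr11:67200052-67224575), Myh4 (chr11:67238029-67260446) and Myh8 (chr11:67277124-67308634), with GENCODE M21 coordinates on GRCm38. The other 5 lie elsewhere: Mybpc2, Tnni2 and Tnnt3 on chromosome 7, Pvalb on chromosome 15 and Actn3 on chromosome 19. The 120 bases before the RefSeq start site (GRCm38.p6) of the 5 clustered genes are shown because the most and the least abundant heavy chains of the set are neighbours here. They cover chr11:67078180-67078299, chr11:67170907-67171026, chr11:67199982-67200101, chr11:67237692-67237811 and chr11:67277004-67277123, in the order given. Capitals mark a TATA box (TATAAA, plus strand of the gene only), an E-box (CANNTG, a palindrome, the letters bound by the MyoD family), a MEF2 motif or a CArG box, the last 3 searched on both strands.
Myh3: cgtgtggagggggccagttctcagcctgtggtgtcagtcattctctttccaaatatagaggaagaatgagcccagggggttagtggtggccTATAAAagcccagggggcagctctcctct
Myh2: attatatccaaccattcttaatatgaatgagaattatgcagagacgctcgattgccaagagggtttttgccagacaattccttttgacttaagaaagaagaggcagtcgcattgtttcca
Myh1: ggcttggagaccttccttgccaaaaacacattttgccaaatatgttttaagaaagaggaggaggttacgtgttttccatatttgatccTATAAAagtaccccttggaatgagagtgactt
Myh4: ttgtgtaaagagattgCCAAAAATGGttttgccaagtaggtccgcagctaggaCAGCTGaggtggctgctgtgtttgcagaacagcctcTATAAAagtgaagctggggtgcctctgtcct
Myh8: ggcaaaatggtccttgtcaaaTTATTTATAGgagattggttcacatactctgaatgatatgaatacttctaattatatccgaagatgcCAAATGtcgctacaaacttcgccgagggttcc
TATAAA stood 29 bases before the start in Myh3, 32 in Myh1 and 31 in Myh4, and was not in the printed windows of Myh2 and Myh8. In Myh4 the CArG box, the letters read by serum response factor, began 104 bases and the E-box CAGCTG 67 bases before the start. The Myh8 window held a MEF2 motif 99 bases and an E-box 32 bases before the start, and the Myh2 window held none of these letters. The search also covered 250 bases before the start of 32851 RefSeq promoters, among them 8 windows of 7 of the 10 genes. In all promoters the share with a match was 66.2% for the E-box, 7.59% for TATAAA, 2.92% for MEF2, 1.47% for the CArG box and 3.49% for the MEF3 motif TCAGGTT. Of the 8 windows, 5 held an E-box, 4 a MEF2 motif, 3 a TATA box, 1 a CArG box and 0 a MEF3 motif. A match is a description of these letters only.

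Per length, in TPM (abundance corrected for transcript length, summing to the same total in each library), the genes fell into a steep order. Tnnt3, the fast troponin T that anchors the troponin complex to tropomyosin, was first at 27423 ± 3010 TPM (SD, n = 20), above Myh4 in 20 of 20 libraries. Myh4 followed at 15532 ± 2446 TPM and Tnni2, the inhibitory subunit of fast troponin, at 13481 ± 1544 TPM. These neighbours overlapped in range, with Myh4 higher in 18 of 20 libraries. Pvalb, the calcium buffer that speeds relaxation, had 7626 ± 1384 TPM and Actn3, the Z-disc actinin of fast fibres, 4693 ± 1158 TPM. Pvalb was above Actn3 in 19 of 20 libraries.

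Mybpc2, the fast myosin-binding protein C of the thick filament, was at 2518 ± 477 TPM and Myh1 at 1552 ± 442 TPM, with Mybpc2 above Myh1 in 16 of 20 libraries. Myh2 was at 824 ± 386 TPM and below Myh1 in 20 of 20 libraries. The developmental chains came last and were not separated from each other: Myh3 had 5.32 ± 6.78 TPM and Myh8 5.04 ± 3.82 TPM, with Myh3 higher in 8 of 20 libraries. The coefficient of variation between libraries was 11.0% for Tnnt3, 11.5% for Tnni2, 15.7% for Myh4, 18.1% for Pvalb, 19.0% for Mybpc2, 24.7% for Actn3, 28.5% for Myh1, 46.8% for Myh2, 75.7% for Myh8 and 127% for Myh3, so the 4 least abundant genes varied most. The counts behind the low genes were still substantial, from 107 to 3616 expected counts per library for Myh3 and from 250 to 2434 for Myh8.

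**Figure D1:**
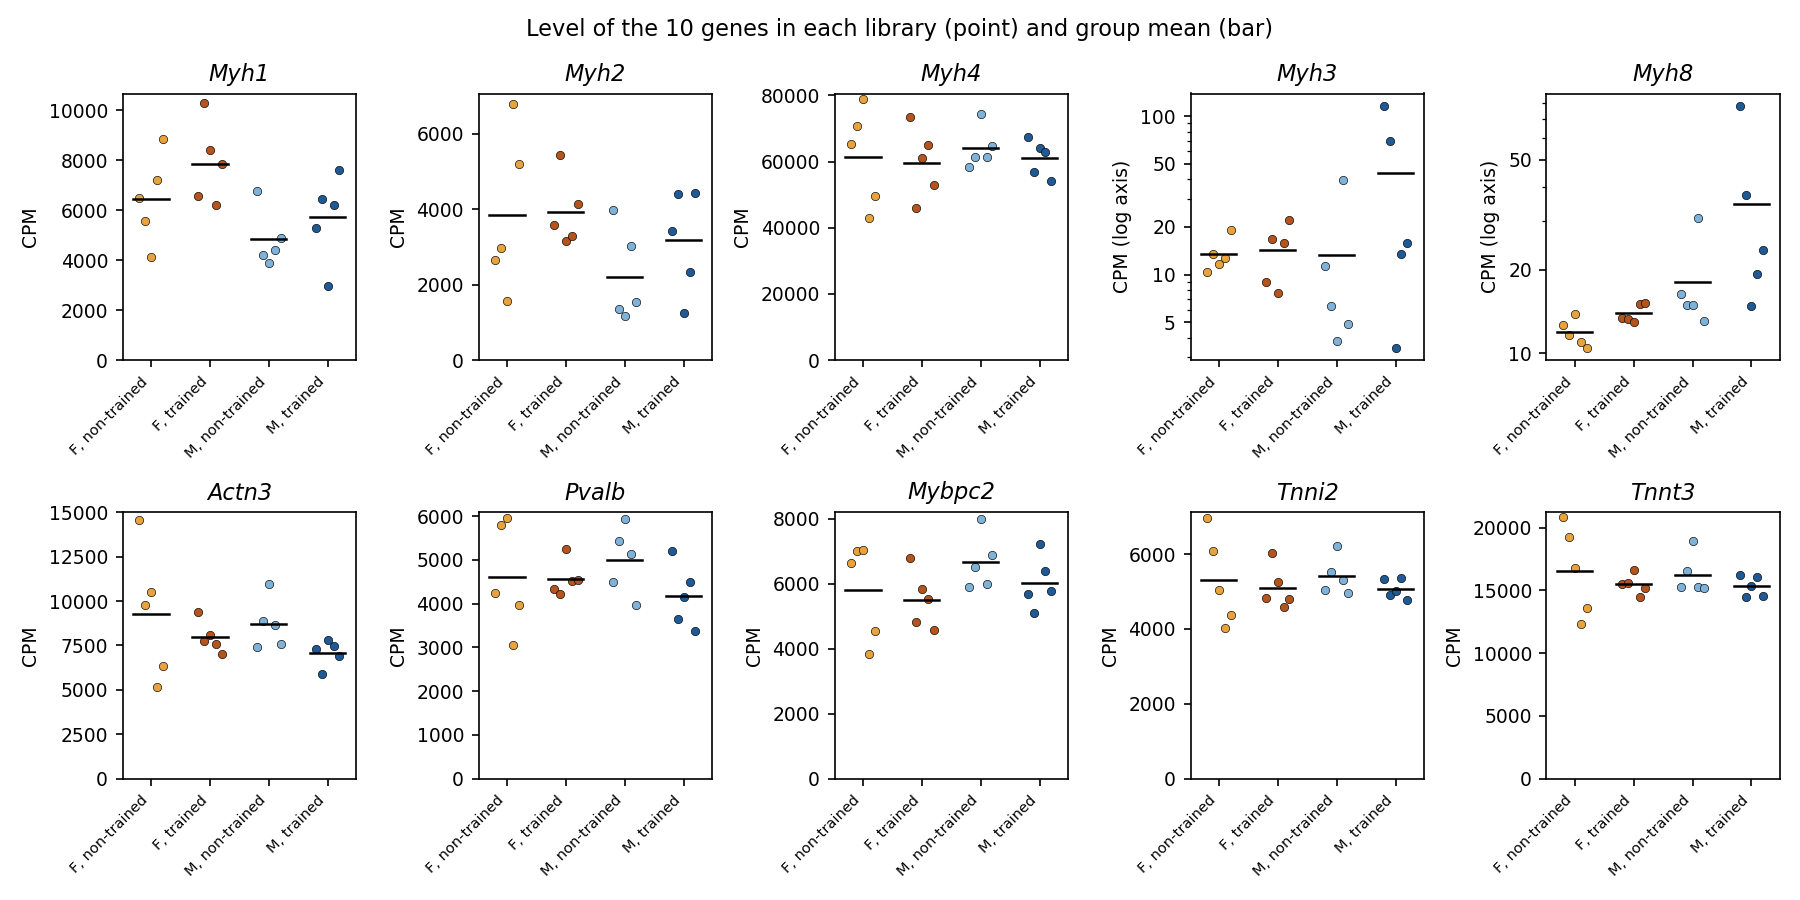
CPM of the 10 genes in each library by group (F, female; M, male), with a point per library, a bar at the group mean of 5 libraries, and a log axis for Myh3 and Myh8 only. The 8 adult genes overlap across all 4 groups, while male trained libraries reach 117 CPM for Myh3 and 78.5 CPM for Myh8.

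Training was the study's intervention, and none of the 10 genes passed the threshold (edgeR quasi-likelihood test, Benjamini-Hochberg adjusted p of 0.05 over all 15709 genes) for it in either sex. The test called 0% of all genes for training in females, 0% in males, 0.0127% for the mean of both sexes and 0% for the difference between the sexes in the training effect. The background itself was at or near 0, while 1347 genes in females, 676 in males, 1441 in the mean and 656 in the difference between the sexes had an unadjusted p under 0.05. Of the 10, 0 in females, 2 in males (Myh8 and Myh3), 1 in the mean (Myh8) and 0 in the difference between the sexes did. DESeq2 called 33 genes for training in females, 5 in males, 30 for the mean and 1 for the difference, and limma-voom called 0 in each; both called 0 of the 10 in each. No gene of the 10 had groups of trained and non-trained libraries that did not overlap, against 1.35% of all genes in females and 1.09% in males.

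Myh4, the dominant heavy chain, was close between trained and non-trained mice. In females it had 65331, 70689, 78811, 42985 and 49664 CPM without training and 73403, 45863, 60965, 65165 and 52866 CPM with training. In males it had 58449, 61452, 74389, 61369 and 64681 CPM without training and 67454, 57018, 64116, 63014 and 54176 CPM with training. Female libraries spread more widely than male ones, and the groups overlapped throughout. The mean log2 difference, trained minus non-trained, was -0.06 (SE 0.10, 95% interval -0.27 to 0.16, edgeR adjusted p = 0.927).

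Myh1 and Myh2, the chains of the more oxidative fast fibres, did not pass the test for training. Myh1 averaged 6438 ± 1769 CPM in female non-trained, 7860 ± 1626 in female trained, 4827 ± 1138 in male non-trained and 5710 ± 1741 in male trained libraries (SD, n = 5 each). Its mean log2 difference with training was 0.27 (95% interval -0.07 to 0.60, edgeR adjusted p = 0.663). Myh2 ranged from 1172 to 6782 CPM over all libraries, and its difference was 0.28 (95% interval -0.34 to 0.90, adjusted p = 0.838). In females alone Myh2 differed by 0.03, which became -0.00714 with library size as the only scaling and lay between -0.17 and 0.34 on leaving out 1 library. For Myh2 the interval reaches far enough that a change of moderate size in either direction was not detectable with these libraries.

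The fast fibre genes outside the heavy chains all had slightly lower means with training, also short of the threshold. Actn3 had the furthest value, at -0.26 on the log2 scale (95% interval -0.54 to 0.03, edgeR adjusted p = 0.609). It rested partly on female non-trained library 1, which had the highest Actn3 of all at 14550 CPM against 5173 to 10961 CPM in the others. Without that library the difference was -0.14 (adjusted p = 0.702). Pvalb, Mybpc2, Tnnt3 and Tnni2 differed by -0.13, -0.11, -0.09 and -0.07, and each interval included 0. Over the 10 genes the median log2 difference was -0.06, with 4 above and 6 below 0, beside 0.002 over all genes tested.

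The developmental chains gave the furthest values in males. Myh8 in male non-trained libraries was at 16.3, 14.9, 15.0, 30.8 and 13.0 CPM and in male trained libraries at 78.5, 37.3, 14.8, 19.4 and 23.6 CPM. The highest values were those of male trained libraries 1 and 2 and male non-trained library 4, and the groups overlapped. The log2 difference with training in males was 0.95 (SE 0.34, edgeR adjusted p = 0.993). Without male trained libraries 1 and 2 it was 0.10, and without these and male non-trained library 4 it was 0.39.

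Myh3 had the same libraries at the top. It was at 11.4, 6.34, 3.81, 39.8 and 4.88 CPM in male non-trained and at 117, 70.0, 3.44, 13.6 and 15.9 CPM in male trained libraries. The lowest of all 20 values, 3.44 CPM, was also a male trained library. The log2 difference with training in males was 1.73 (SE 0.76, edgeR adjusted p = 0.993), and it turned to -0.27 without male trained libraries 1 and 2. In females, Myh3 differed by 0.08 and Myh8 by 0.23 with training. The difference between the sexes in the training effect was 1.65 for Myh3 (SE 1.06) and 0.72 for Myh8 (SE 0.49), both with an edgeR adjusted p of 0.999.

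The same 3 male libraries were the highest for 3 of the 16 tested developmental and denervation genes, Mymk, Tnnt2 and Myl4, which are given here after their values were seen. The sum over the list did not single out the 3 together, at 456, 326 and 298 CPM against up to 406 CPM in the other libraries. Male trained library 1 alone had the highest sum of all 20 libraries. It was also among the 3 highest libraries for further genes of the list, but not for all of them. Mymk, the membrane protein that drives myoblast fusion, was at 10.001 CPM in male trained library 1, 5.69 in male trained library 2 and 2.25 in male non-trained library 4, against at most 1.16 CPM elsewhere. Tnnt2, the cardiac and embryonic troponin T, was at 22.6, 12.4 and 8.11 CPM in these libraries, against at most 6.09 elsewhere. Myl4, the embryonic light chain, was at 40.8, 23.5 and 18.1 CPM, against at most 12.3 elsewhere. Chrng, the fetal subunit of the acetylcholine receptor, was at 6.94 and 4.34 CPM in male trained libraries 1 and 2, but at 0.72 CPM in male non-trained library 4. The summed satellite cell markers did not stand apart there, at 24.4, 22.2 and 23.1 CPM within the range of 12.3 to 28.4 CPM over all libraries. The summed macrophage markers were at 229, 277 and 362 CPM, within the male range of 123 to 697 CPM. The summed erythroid markers were at 351, 263 and 3754 CPM, so that male non-trained library 4 was far above all others in these. Whether another cell type or the condition of these samples had a part in the developmental gene levels was not tested.

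**Figure D2:**
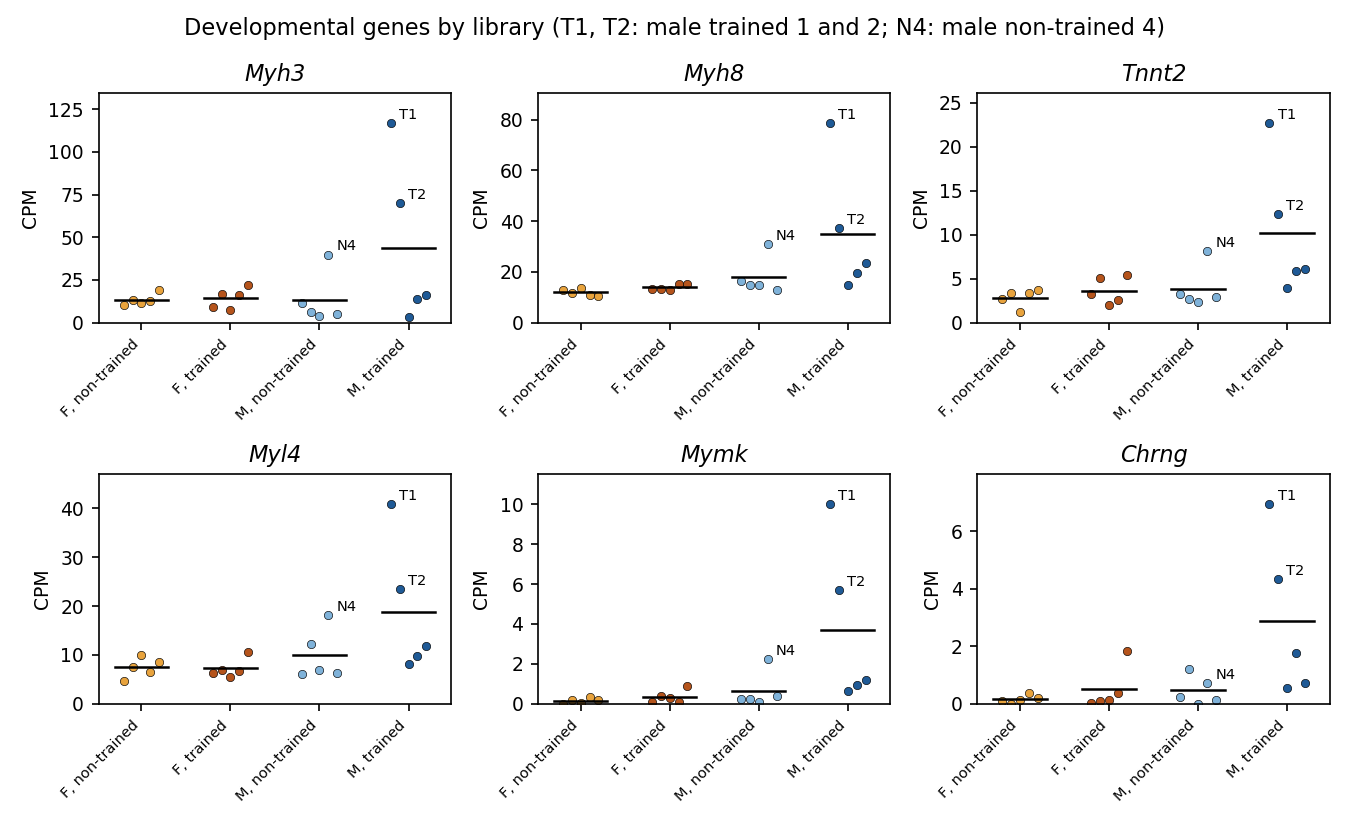
CPM of Myh3, Myh8 and 4 other developmental genes in each library by group, with the group mean of 5 libraries as a bar and male trained libraries 1 and 2 (T1, T2) and male non-trained library 4 (N4) marked. T1 is the highest library in each panel, and N4 stands above the other male non-trained libraries for every gene except Chrng.

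Sex gave many more calls than training over all genes, and 1 of the 10 was among them. In non-trained mice 5.21% of all genes were called for sex (3.14% higher in males, 2.07% lower), and 0 of the 10, with 0 of them at an unadjusted p under 0.05 in edgeR, where 3411 of all genes had one, and 0 called by DESeq2 or limma-voom. In trained mice 5.6% of all genes were called (3.39% higher, 2.22% lower) and 1 of the 10, Myh8, was called as higher in males. An unadjusted p under 0.05 in edgeR was found there for 2 of the 10, Myh8 and Myh3, and for 3257 of all genes. Averaged over both training states, 17.9% were called (9.91% higher, 8.03% lower) and again Myh8 alone of the 10, as higher. Here 2 of the 10, Myh8 and Myh1, and 4952 of all genes had an unadjusted p under 0.05 in edgeR. A share of 1 call in 10 genes is near the background for the averaged comparison. None of the 10 had female and male libraries that did not overlap in either training state, against 6.38% of all genes in non-trained and 7.38% in trained mice.

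Myh8 was higher in males at a low level. The female non-trained libraries had 12.7, 11.6, 13.8, 11.0 and 10.4 CPM and the female trained libraries 13.4, 13.3, 13.0, 15.1 and 15.1 CPM. All 10 female libraries thus lay between 10.4 and 15.1 CPM, a narrow range, while the 10 male libraries lay between 13.0 and 78.5 CPM. The averaged log2 difference, male minus female, was 0.95 (SE 0.25, 95% interval 0.44 to 1.47, edgeR adjusted p = 0.0124). It was 0.53 without male trained libraries 1 and 2 (edgeR adjusted p = 0.019). Without these and male non-trained library 4 it was 0.38 (edgeR adjusted p = 0.0102). The removed libraries hold the highest Myh8 values and were picked after values were seen, so their removal also narrows the male spread. The p-values after removal thus cannot show that the call held, while the difference was smaller.

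Within trained mice the Myh8 difference was 1.31 (SE 0.35, edgeR adjusted p = 0.0342), and it did not pass in limma-voom (adjusted p = 0.0796) or without male trained libraries 1 and 2 (0.46, adjusted p = 0.264). Leaving out male trained library 1 alone brought it to 0.77 (edgeR adjusted p = 0.0729). In non-trained mice it was 0.60 (SE 0.35, edgeR adjusted p = 0.336). Markers of macrophages moved in the same direction as Myh8: 10 of 10 were higher in males in the averaged comparison, with a summed level of 45.2 to 147 CPM in female and 123 to 697 CPM in male libraries, and none of the 20 sums was 0. The highest sum, 697 CPM, was in male trained library 3, which had the lowest Myh8 of its group. Male non-trained library 4, at 362 CPM, was the highest of its group in both. The part of these markers in the Myh8 result was not tested.

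Unlike Myh8, Myh3 did not pass for sex, though its averaged difference had the same direction. Its female non-trained libraries had 10.5, 13.4, 11.7, 12.7 and 19.2 CPM and its female trained libraries 9.04, 16.7, 7.66, 15.9 and 22 CPM. The male values extended past the female range at both ends. The averaged difference was 0.80 (SE 0.53, edgeR adjusted p = 0.328). It turned to -0.20 without male trained libraries 1 and 2 and to -0.71 without these and male non-trained library 4. On leaving out 1 library, the Myh3 difference lay between 0.852 and 1.91 in trained mice and between -1.03 and 0.20 in non-trained mice.

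Among the adult chains, the means of Myh1 and Myh2 were lower in males, and neither passed. Myh1 had 6493, 5554, 4111, 7199 and 8834 CPM in female non-trained, 6571, 10294, 8387, 6213 and 7837 in female trained, 6761, 4197, 3898, 4406 and 4871 in male non-trained, and 5301, 6441, 2968, 6220 and 7617 in male trained libraries. The lowest library was male and the highest female, with wide overlap between them. The averaged difference was -0.44 (SE 0.16, 95% interval -0.77 to -0.10, edgeR adjusted p = 0.0653), and DESeq2 gave -0.45 with an adjusted p of 0.0231, past the threshold. Myh2 differed by -0.55 (95% interval -1.17 to 0.07, edgeR adjusted p = 0.216) and Myh4 by 0.05 (95% interval -0.17 to 0.26, adjusted p = 0.802).

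The other fast fibre genes were level between the sexes. Tnni2 differed by 0.01, Pvalb by -0.01 and Tnnt3 by -0.02 on the log2 scale, values so near 0 that each changed sign when the libraries were scaled differently, the test was changed or 1 library was left out. Their 95% intervals were -0.17 to 0.19, -0.24 to 0.23 and -0.19 to 0.15. Mybpc2 differed by 0.16 and Actn3 by -0.13, with edgeR adjusted p of 0.328 and 0.566. Neither changed sign on leaving out 1 library, with ranges of 0.105 to 0.202 and -0.206 to -0.0207.

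**Figure D3:**
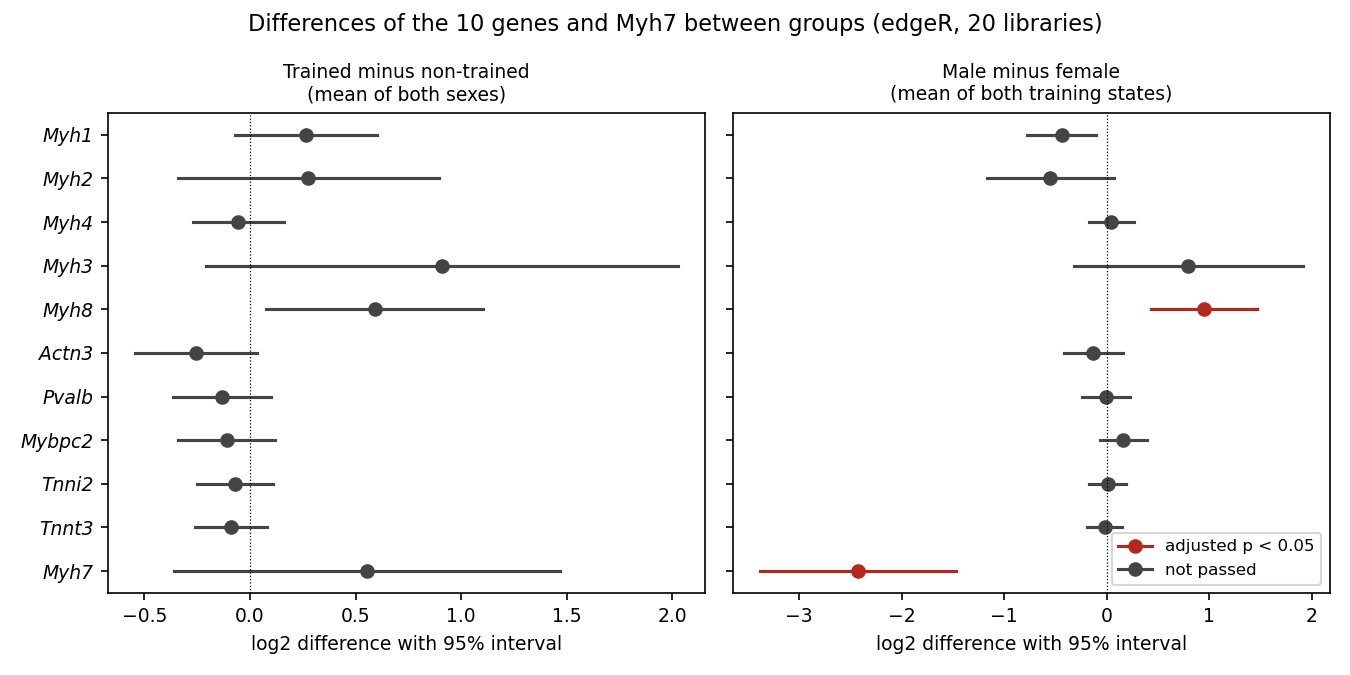
log2 differences of the 10 genes and Myh7 with 95% intervals from edgeR over 20 libraries, trained minus non-trained (left) and male minus female (right), each averaged over the other factor. No gene passed for training, while Myh8 at 0.95 and Myh7 at -2.42 (red) passed for sex.

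The heavy chain mixture was then expressed as each gene's share of the summed TPM of Myh1, Myh2, Myh4, Myh7, Myh3 and Myh8. Myh4 held most of it in every library, from 70.4% to 93.5%. Its mean share was 82.3% ± 8.17 in female non-trained, 80.6% ± 6.51 in female trained, 89.6% ± 3.53 in male non-trained and 86.5% ± 4.88 in male trained libraries (SD, n = 5 each). Myh1 held 9.09%, 10.9%, 6.79% and 8.11% and Myh2 5.65%, 5.43%, 3.15% and 4.51% of the sum in the same order. The developmental chains were minute parts, at most 0.151% for Myh3 and 0.101% for Myh8, both in male trained library 1.

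Of 36 tests on these shares (6 genes in 6 comparisons, exact permutation tests, two-sided, Benjamini-Hochberg adjusted), 2 passed, both for sex averaged over training. Myh7, the slow chain, fell from 2.95% ± 1.62 in females to 0.549% ± 0.378 in males (SD, n = 10 each), a difference of -2.41 percentage points (exact permutation p = 0.000598, adjusted p = 0.0108). Without male trained libraries 1 and 2 and male non-trained library 4 it was -2.47 points and no longer passed (exact permutation, adjusted p = 0.0791). Myh8 rose from 0.0184% ± 0.00279 to 0.0368% ± 0.0253 (exact permutation p = 0.000252, adjusted p = 0.00907). The Myh8 call was lost on leaving out any 1 of the 5 female trained libraries, with adjusted p of 0.114 to 0.143 (exact permutation). These removals left groups of unequal size, where a split with a high library in the smaller group gives a larger difference. The test itself thus changed, and how much of either loss came from this was not tested. The Myh4 share was 6.63 percentage points higher in males (exact permutation p = 0.0225, adjusted p = 0.135) and did not pass. No training test passed: the Myh4 share moved by -1.76 percentage points in females and -3.10 in males, with exact permutation p of 0.698 and 0.270. Within a single sex or training state, the smallest p that 5 against 5 libraries allow is 0.00794 (exact permutation). A lone result at that floor could not pass after adjustment over 36 tests.

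**Figure D4:**
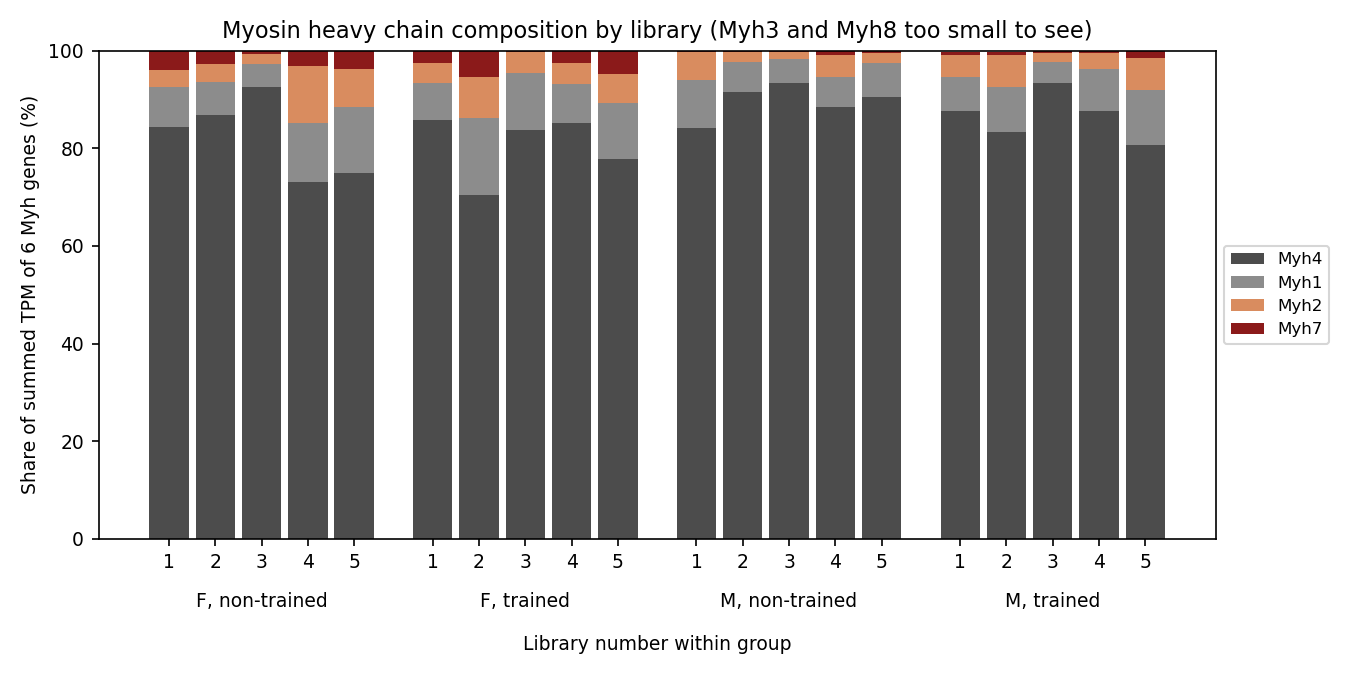
Share of Myh4, Myh1, Myh2 and Myh7 in the summed TPM of 6 Myh genes, in percent, 1 bar per library by group (F, female; M, male). Myh4 fills at least 70.4% of every bar, and the Myh7 segment is larger in most female bars, up to 5.40%, than in the male ones, up to 1.39%.

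Within groups, libraries with more Myh4 had less Myh2. Over the 20 libraries, with log2 CPM centred on the group means, Pearson's r was -0.722 (permutation p = 0.00045, adjusted p = 0.000675 over 3 relations) and Spearman's rho -0.665 (permutation p = 0.00181, adjusted p = 0.00271). For all 3 relations the centred values were shuffled over the 20 libraries and not within groups. Group spreads differed, so these p-values are approximate and may be too small. In uncentred CPM, female non-trained library 4 had the least Myh4 and the most Myh2 of all libraries. Without it and female trained library 2, the pair farthest from the median of centred Myh4, r was -0.658. Myh4 and Myh7 were not related past the threshold (r = -0.36, rho = -0.417, permutation p = 0.119 and 0.0694, both the same after adjustment, and r = -0.344 without the same pair). Both genes of each pair are scaled by the same library size, and part of their sequence is shared. Of the 60-base stretches of the longest transcript, 14.9% in Myh4, 22.1% in Myh1, 21.7% in Myh2, 17.7% in Myh8 and 3.13% in Myh3 also occurred in another gene, so the estimated division of reads among these genes is uncertain. These percentages do not bound the error for a scarce gene. Myh8 shared most with Myh2, a far more abundant chain, and reads assigned wrongly to Myh8 were not tested for. The 5 genes outside the Myh family shared 0%.

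**Figure D5:**
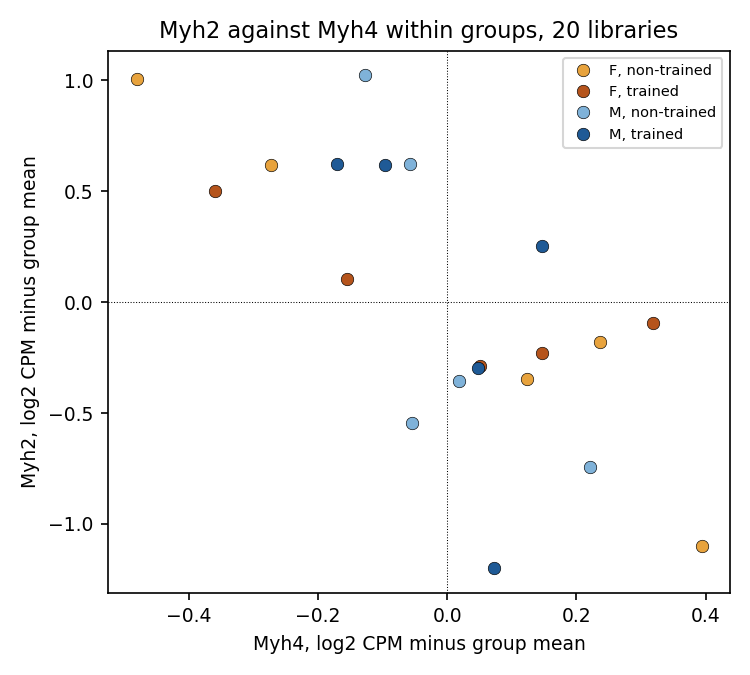
Myh2 against Myh4 as log2 CPM minus the group mean, with a point for each of 20 libraries coloured by group (F, female; M, male). The points run from upper left to lower right (r = -0.722), with female non-trained library 4 at the far upper left.

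Myh3 and Myh8 varied together (r = 0.887, permutation p = 1e-05, the smallest that 100000 resamples can give, adjusted p = 3e-05; rho = 0.768, permutation p = 0.0002, adjusted p = 0.0006). Leaving out male trained libraries 1 and 3, farthest from the median of centred Myh3, r was 0.81, with male trained library 2 and male non-trained library 4 still in. Most of the spread was in males. Centred log2 Myh8 ran from -0.96 to 1.44 in male libraries and from -0.18 to 0.22 in female ones. In female non-trained library 5, Myh3 was highest of its group and Myh8 lowest. The relation was not tested within females alone. Among 11718 named genes with a mean of at least 1 CPM, the genes most like Myh3 across the 20 group-centred libraries were Myh8, Tnnt2 (r = 0.857) and Myl4 (r = 0.841). The nearest to Myh4 were Ppp3ca (r = 0.932), a catalytic subunit of calcineurin, Phkb (0.928), a subunit of phosphorylase kinase, and Eif4ebp2 (0.925), a repressor of translation initiation. Those nearest to Myh2 were Smtnl1 (0.946), Bdh1 (0.945), a ketone body enzyme, and Ppip5k1 (0.939). For Myh1 they were Gpt (0.903), Phyh (0.898) and Got2 (0.897), enzymes of amino acid and fatty acid metabolism. Actn3 was most like Anapc5 (0.959), Ckm (0.94) and Atp2a1 (0.938), the calcium pump of fast fibres. These are descriptions over the same libraries.

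Transcript usage was read from the abundance-weighted mean transcript length that RSEM gives per gene, which varied in 9 of the 10 genes. Of 54 exact permutation tests (two-sided, adjusted over genes and comparisons), 0 passed, and 3 had an unadjusted p under 0.05. An exact permutation test of 5 against 5 libraries cannot go below p = 0.00794, so a lone one could not pass after this adjustment. Tnnt3, a gene with 27 annotated transcripts known for extensive alternative splicing, was closest. Its mean length was 914.8 ± 2.13 bases in male non-trained and 922.0 ± 5.40 bases in male trained libraries (SD, n = 5 each, exact permutation p = 0.0238, adjusted p = 0.459). In females it was 921.9 ± 3.82 bases without and 925.2 ± 12 bases with training (exact permutation p = 0.683). For sex in non-trained mice the difference was -7.07 bases, with the same exact permutation p of 0.0238 (adjusted p = 0.459). The male non-trained libraries were thus the lower group in both comparisons with this p.

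The rest of the fast and slow programme showed where these 10 genes stood. For training, 0 of 13 other fast fibre genes, 0 of 13 slow fibre genes, 0 of 16 tested developmental and denervation genes and 0 of 21 fibre type regulators passed in edgeR in any comparison. For sex averaged over training, all 13 slow fibre genes fell in males, with a median log2 difference of -1.54 beside 0.003 over all genes and 0.002 over the 10. The lowest p values belonged to Mybpc1 at -0.86 (adjusted p = 0.0003), the slow myosin-binding protein C, Tnnc1 at -2.49, the slow troponin C, Myh7 at -2.42 and Tpm3 at -1.87, a slow tropomyosin. By the same test 7 of the 13 passed as lower in males in non-trained mice and 2 in trained mice. The share of all genes was 2.07% and 2.22%. The others were also lower in males in each state. In CPM, female and male libraries did not overlap for 2 of the 13 in non-trained mice, Tnnc1 and Mybpc1, against 6.38% of all genes. In trained mice this was 1, Mybpc1, against 7.38%. Summed over the list, female non-trained library 3 (2934 CPM) and female trained library 3 (3078 CPM) lay within the male range of 1508 to 3665 CPM.

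Of the 13 other fast fibre genes, 4 passed as lower in males and none as higher, with a median of -0.14. Of all genes, 8.03% passed as lower and 9.91% as higher in males. They were Mybph at -1.86, a myosin-binding protein, Ldha at -0.39 and Pgam2 at -0.33, both enzymes of glycolysis or its end step, and Atp2a1 at -0.27. Of 16 developmental and denervation genes, 3 passed as higher in males: Mymk at 2.81, Tnnt2 at 0.96 and Myl4 at 0.90 (edgeR adjusted p = 0.0103, 0.0494 and 0.0407). None of the 3 passed in limma-voom (adjusted p = 0.0959, 0.117 and 0.0998) or without male trained libraries 1 and 2. On leaving out each of the 20 libraries in turn, Mymk passed 20 times, Myl4 9 times and Tnnt2 5 times. Chrng at 2.08 had an adjusted p of 0.0596. Fibre type regulators went both ways, with 2 of 21 higher, near the share over all genes, and 4 lower in males. Eya4, a transcriptional cofactor and phosphatase, rose by 0.83, while Vgll2, a TEAD cofactor, fell by 1.05 and Prox1, a regulator of the slow programme, fell by 1.14 on the log2 scale.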

How the data were processed

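RNA sequencing of muscle was deposited for the 20 wild type libraries used here, 1 table per library. Per the labels' protocols, poly(A) RNA went into a directional library kit. Per the submitters' processing notes, the build was GRCm38 and the tools named include RSEM 1.3.1, STAR 2.5.1, cutadapt, limma, Trim Galore and edgeR, with no role given. The annotation release was not given in the sources used here. The authors deposited expected counts from RSEM, which are estimates and not always whole. Per the file headers, TPM, FPKM, transcript length and effective length stand beside them, and the FPKM values were not used. Symbols and positions came from GENCODE M21, to which 53360 of 53465 identifiers matched, leaving 0.00673% of the counts unmatched. Reads that match several genes were divided among them by estimation, as RSEM does.

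Expected counts were rounded and filtered with filterByExpr (minimum count 10). The 4 groups were fitted together in edgeR 4.0.16 (TMM scaling, robust quasi-likelihood fit, R 4.3.3), and p-values were adjusted over 15709 genes at a threshold of 0.05. SE is the log2 difference divided by the square root of F. log2 CPM values used a prior count of 2. Shares were computed from the deposited TPM and, with transcript lengths, tested by exact permutation (252 splits of 5 against 5, or 63504 within 2 strata). The alternatives used DESeq2 1.42.0, limma-voom 3.58.1, other scalings and filters, fewer groups or libraries, and other share denominators. The scripts were tested on simulated data. The genes described, the lists and the rule for naming were chosen with earlier results of these data known. The rule named all 10 genes, Myh7, up to 4 genes per list with the smallest unadjusted p, and the 3 genes most like each of Myh4, Myh2, Myh1, Myh3 and Actn3. 1 gene that the rule takes is not reported here. The removals of several male libraries at once, Ckm, Myl7 and Nppa as markers, and the developmental genes quoted by library were chosen after values were seen.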

Additional observations from a re-analysis of the deposited data

Results flagged for a closer look

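In each group of 5 libraries, the gap between the most extreme library and its neighbour was compared with the group's range (above 0.71, Dixon's test). Of 100 groups tested over levels, shares and transcript lengths, 10 exceeded it. Chance gives about 1 in 20 for independent, normally spread values, which these were not. Levels and shares of a gene repeat each other, and Myh3 length lay near 5992 bases in most libraries. Male non-trained library 4 stood apart in 5 of them. Its Myh3 level was 39.8 CPM against 3.81 to 11.4 CPM in the other 4 libraries, and its Myh8 level 30.8 CPM against 13.0 to 16.3 CPM. The shares repeat this, with Myh3 at 0.0570% of summed Myh TPM against at most 0.0163%, and Myh8 at 0.0444% against at most 0.0232%. The Tnnt3 mean transcript length in the same library was 918.5 bases against 913.4 to 914.6 bases. The Myh3 mean length was high in 1 library of each group: 6013 bases in female non-trained library 4, 6001 bases in female trained library 2, 6031 bases in male non-trained library 2 and 6013 bases in male trained library 5, against 5992 to 5997 bases in the others. Male trained library 5 also had the longest Actn3 of its group, 2746.8 bases against 2668 to 2689 bases.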

How the results depend on the processing

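No paired analysis was possible because the labels give the 4 groups no shared library numbers. For training, the count of 0 of the 10 genes called held under every alternative run, library removals included. For sex in trained mice, the count of 1 (Myh8) fell to 0 under limma-voom, without a low-count filter, with only the compared groups in the fit, and without male trained libraries 1 and 2 with or without male non-trained library 4. Leaving out 1 library gave 0 to 1, with 0 on removal of any female trained library or of male trained library 1 or 2. For sex averaged over training, the count of 1 became 2 with DESeq2, which added Myh1, and leaving out 1 library gave 1 to 2. Of the share tests, 2 passed, against 1 with 4 adult genes as denominator (Myh8 is not in it), 1 without the 3 male libraries (Myh7 lost, -2.47 points, adjusted p = 0.0791, exact permutation), and 1 to 2 on leaving out 1 library. Removing libraries leaves groups of unequal size, which changes the exact permutation test as well as the data. The count of length tests passing stayed at 0 in all settings run, but a lone test within a single sex or training state could not have passed.

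Directions changed for values near 0 and, without the male libraries named, for Myh3 and Myh8. Library size alone gave Myh2 for training in females -0.00714, Myh3 for sex in non-trained mice 0.0297, and Pvalb 0.0572 and Tnnt3 0.0462 for sex averaged over training. limma-voom gave Pvalb 0.0046 and no filter gave Tnni2 -0.000285 there. Without male trained libraries 1 and 2, Myh3 was -0.27 for training in males, -0.0922 for the training mean, -0.35 for its difference between the sexes, -0.38 for sex in trained mice and -0.20 for sex averaged, its share differed by -0.000997 points for training and -0.00203 for sex, and Myh8 was -0.13 for the difference between the sexes in training. Without male non-trained library 4 as well, Myh3 was -0.38 for sex in trained mice and -0.71 averaged, and its share -0.0068. Leaving out 1 library gave Myh3 -0.13 to 0.24 and Myh2 -0.17 to 0.34 for training in females, Myh1 -0.19 to 0.12 for the difference between the sexes in training, Myh3 -1.03 to 0.20 for sex in non-trained mice, and for sex averaged Tnnt3 -0.0661 to 0.0255, Pvalb -0.0653 to 0.0434, Tnni2 -0.0317 to 0.0685 and Myh4 -0.0054 to 0.0949. The Myh7 share for training ranged from -0.0402 to 0.602 points. The cause was not tested.

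For sex averaged, the calls among 13 slow genes ranged from 10 (no filter) to 13. Those among the developmental and denervation genes, 3 in the edgeR fit above, ranged from 0 (limma-voom, or without the male libraries named) to 5 (DESeq2). The lowest value behind any of the 10 genes was 107 expected counts, so none was near the counting floor. Reads of abundant heavy chains assigned wrongly to Myh3 or Myh8 were not tested for.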
